A study of Rattus norvegicus with 4 samples.

Results

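The creatine and calcium futile cycle genes are 10 genes chosen by symbol for their place in 2 cycles that can spend energy as heat without uncoupling protein 1 (Ucp1). No measured value was used to choose them, though earlier results of these data were known. The 10 genes comprise 6 of creatine handling (Slc6a8, Gatm, Gamt, Ckb, Ckmt2 and Alpl) and 4 of calcium cycling at the endoplasmic or sarcoplasmic reticulum (Atp2a1, Atp2a2, Ryr1 and Ryr2). Of the 10 symbols, 9 were found among the 32883 genes of the count matrices; Atp2a1, which encodes the fast-muscle calcium pump SERCA1, was not analysed here. The counts came from nuclei of 2 fat depots of male Dahl SS rats (strain SS/HsdMcwiCrl), a line bred for blood pressure that rises on a high-salt diet. All rats were naïve, 16 weeks old and labelled as without disease. They were fed Teklad chow and kept at 22 °C, so groups that differ in cold, salt or a drug were not compared. Perivascular adipose tissue of the thoracic aorta (taPVAT) gave 2 libraries and subscapular brown adipose tissue (BAT) gave 2, with a replicate 1 and a replicate 2 in each tissue. The design text gives 2 rats per tissue, and the labels do not say whether the same rats gave both tissues.

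In the creatine cycle, creatine is made from arginine and glycine, or taken up by a transporter, and a creatine kinase charges it to phosphocreatine with the phosphate of ATP. If a phosphatase then splits phosphocreatine with no work done, the creatine is charged again and each turn spends ATP. In the calcium cycle, a SERCA pump uses ATP to move calcium into the reticulum and ryanodine receptors let it out again, so pumping against the leak also spends ATP. Brown adipocytes are best known for Ucp1, which lets protons leak across the inner mitochondrial membrane, and both cycles have been described in thermogenic fat of mice as routes beside it.

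Droplet sequencing gave 14765 to 44637 barcodes per library and 63654436 to 158140959 unique molecular identifiers (UMIs, each taken as 1 captured RNA molecule). Libraries shared 0.853% to 1.29% of the smaller library's barcodes. After barcodes under 500 genes and called doublets were removed, 100716 nuclei fell into 28 clusters, all but 2 of which were named from marker genes. Those 2 were left out of the classes: a mixed one of 2048 nuclei, at most 3.70% of a library (taPVAT replicate 1), and an unnamed one of 802 nuclei, at most 3.15% (BAT replicate 2). The adipocyte class held 9034 to 28151 nuclei per library, 73.4% to 78.4% of the nuclei. The largest adipocyte cluster was a different one in each library, led by Asic2 and Nav2 in taPVAT replicate 1, Cyp4a2 and Dusp16 in taPVAT replicate 2, Ehhadh and Impdh1 in BAT replicate 1, and Socs2 and Hlx in BAT replicate 2. Adipocyte RNA was also read in droplets of every other class. Over 11 adipocyte markers, the median level in T or NK lymphocyte-like nuclei was 70.9% to 90.2% of that in adipocytes, depending on the library, and 37.0% to 62.5% in vascular endothelial-like nuclei. How much of a member's level in those classes is adipocyte RNA and how much is their own was not tested. Levels are given as CPM, the counts of a gene per 1000000 UMIs of a class in a library, and are not scaled to transcript length, so they are compared between libraries and classes, not between genes. Intervals and limits of detection cover counting error only.

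Within adipocytes, no member passed the test between taPVAT and BAT, and neither did any other gene. Of the 8 members tested, 4 did not overlap between the tissues: Atp2a2, Gatm and Ryr1 were higher in both taPVAT libraries than in both BAT libraries, and Ryr2 was lower. The tissues did not overlap, in either direction, for 20.1% of all genes tested. Slc6a8, Gamt and Alpl followed the replicate number and not the tissue, as did 62.8% of all genes tested (35.8% higher in both replicates 1 and 27.0% higher in both replicates 2), so this is not read as particular to them. Gatm, Ryr1 and Ryr2 were low, below 1 CPM in every library, and Ckmt2 had at most 8 UMIs in a library. The test was edgeR's quasi-likelihood test on UMI sums per library, with Benjamini-Hochberg adjustment at 0.05 over 15486 genes. It called 0 genes (0% of those tested). Before adjustment, 351 of them had a p under 0.05, and the number that DESeq2 called was 56. Without BAT replicate 1 or BAT replicate 2 edgeR called 114 and 109 genes, without taPVAT replicate 2 it called 3 and without taPVAT replicate 1 it called 0, and none of these was a member. Of the 9 members found, 8 passed the filter on low counts, and each had an adjusted p of 1.0. On simulated counts with the spread of these libraries, that test called 0% of genes changed 2-fold or 4-fold, so a member's missing call does not show that the tissues are alike. Each difference below is therefore given with its standard error.

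**Figure D1:**
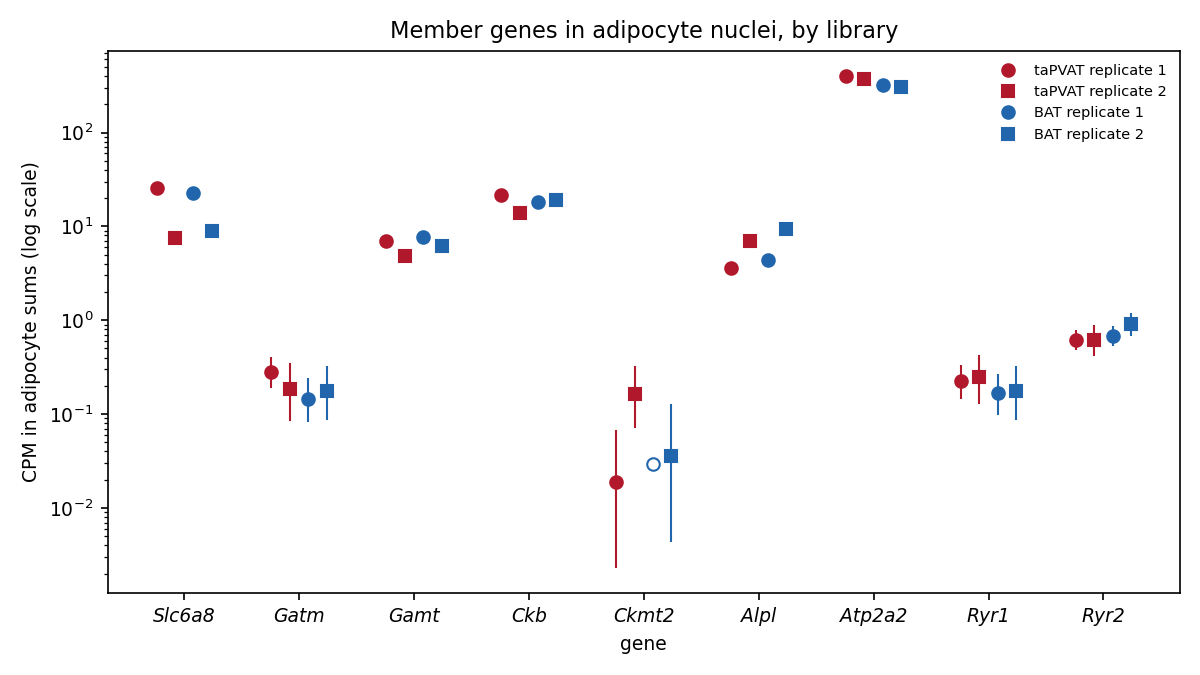
CPM (log scale) of the 9 members in the adipocyte sum of each library, with exact 95% Poisson intervals; the open symbol marks a library with 0 UMIs at its limit of detection. Slc6a8, Gamt and Alpl separate by replicate number, Gamt with intervals that overlap between the numbers. Atp2a2, Gatm, Ryr1 and Ryr2 separate by tissue, the last 3 with intervals that overlap between tissues. Gatm, Ckmt2, Ryr1 and Ryr2 lie below 1 CPM.

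Slc6a8 encodes the creatine transporter, the way in for creatine from the blood. Its adipocyte level was 25.4 CPM in taPVAT replicate 1 and 7.47 CPM in taPVAT replicate 2. In BAT it was 22.8 CPM in replicate 1 and 8.95 CPM in replicate 2. Both replicates 1 were high and both replicates 2 low, by 3.39-fold in taPVAT and 2.55-fold in BAT, and the tissues overlapped throughout. The fitted log2 fold change of taPVAT over BAT was 0.08 ± 0.66 (SE, n = 2 libraries per tissue; edgeR adjusted p 1.0), and it changed sign with the library left out, from −1.03 without taPVAT replicate 1 to 0.80 without BAT replicate 1. In each of the 7 other classes tested, where adipocyte RNA is read too, both replicates 1 were also above both replicates 2. The same order was found in 5 of 7 for Gamt and in 5 of 7 for Atp2a2, whose adipocyte level does not separate by number. How many of all genes show this order in those classes was not counted, so it is not read as particular to these members. Library size sorted the same way: replicates 1 held 157446484 UMIs and 28151 adipocyte nuclei in taPVAT and 158140959 UMIs and 22011 nuclei in BAT, and replicates 2 held 63654436 UMIs and 9034 nuclei and 92939355 UMIs and 17297 nuclei. Median UMIs per adipocyte nucleus did not sort this way (3171 and 4944 in taPVAT, 3885 and 2775 in BAT). Ucp1 was also higher in both replicates 1. Replicates 1 held 941 CPM of Ucp1 in taPVAT and 1531 CPM in BAT, and replicates 2 held 459 and 663 CPM. What the number stands for is not given in the labels, and its part and that of library size in these levels were not tested.

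Gatm and Gamt encode the 2 enzymes of creatine synthesis, the first acting on arginine and glycine and the second adding the methyl group. Gatm was nearly absent from adipocytes, with 30 and 9 UMIs in the taPVAT libraries and 15 and 10 UMIs in the BAT libraries, or 0.283 and 0.185 CPM in taPVAT and 0.146 and 0.178 CPM in BAT. The tissues did not overlap, but the counts behind 0.185 and 0.178 CPM are 9 and 10 UMIs. Gamt was at 6.91 and 4.80 CPM in taPVAT and at 7.63 and 6.24 CPM in BAT, so for Gamt the tissues overlapped and both replicates 1 were higher. The fitted difference was 0.59 ± 0.52 on the log2 scale for Gatm and −0.21 ± 0.33 for Gamt. Of the 2 synthesis genes, Gamt alone was read above 1 CPM in adipocyte nuclei of these 4 libraries.

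Ckb encodes the brain-type creatine kinase of the cytosol, and Ckmt2 the sarcomeric creatine kinase of mitochondria. Ckb was at 21.8 and 13.9 CPM in taPVAT adipocytes and at 18.2 and 19.2 CPM in BAT adipocytes. The 2 BAT values lay between the 2 taPVAT values, and the log2 difference was −0.04 ± 0.31. Ckmt2 had 2 and 8 UMIs in taPVAT adipocytes and 0 and 2 in BAT adipocytes. The 0 in BAT replicate 1, out of 102406910 adipocyte UMIs, allows up to 0.029 CPM for counting error alone. Over all nuclei Ckmt2 had 18 UMIs, so no class here shows that the assay reads it well. The adipocyte marker Pnpla2 was also low, at 0.314 to 0.979 CPM in the adipocyte sums split by Ucp1 below. A count near 0 is therefore not read as absence of Ckmt2 RNA. Ckmt2 did not pass the filter and was not tested.

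Alpl encodes tissue-nonspecific alkaline phosphatase, which has been described as the phosphocreatine phosphatase of the cycle in mouse fat. It ran against Slc6a8 in the libraries: 3.60 CPM in taPVAT replicate 1 and 7.04 CPM in replicate 2, and 4.37 CPM in BAT replicate 1 and 9.45 CPM in replicate 2. Replicate 2 was higher by 1.96-fold in taPVAT and by 2.16-fold in BAT. In the 7 other classes tested both replicates 2 were above both replicates 1 in 3 and below them in 1, again with no count over all genes beside it. Within each number taPVAT was the lower library, but the tissues overlapped, and the log2 difference of −0.34 ± 0.55 turned positive without BAT replicate 2 (0.37) or taPVAT replicate 1 (0.05).

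Atp2a2 encodes SERCA2, the calcium pump of most cells, whose SERCA2b form has been described in calcium cycling of beige fat in mice. Gene counts of this kind do not tell its isoforms apart. Its level was 402 and 374 CPM in taPVAT adipocytes and 324 and 309 CPM in BAT adipocytes. Both taPVAT libraries were above both BAT libraries, beside the 20.1% of genes whose tissues did not overlap. The log2 difference was 0.33 ± 0.25 (adjusted p 1.0), and it stayed between 0.27 and 0.34 when each library was left out in turn.

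Ryr1 and Ryr2 encode the ryanodine receptors, calcium release channels of skeletal and heart muscle that some other cells also use. Ryr1 had 24 and 12 UMIs in taPVAT adipocytes and 17 and 10 UMIs in BAT adipocytes, or 0.226 and 0.246 CPM and 0.166 and 0.178 CPM, higher in both taPVAT libraries. Ryr2 was at 0.622 and 0.616 CPM in taPVAT and at 0.684 and 0.910 CPM in BAT, lower in both taPVAT libraries. Their log2 differences were 0.49 ± 0.49 and −0.33 ± 0.42. Skeletal muscle markers in the same nuclei had a summed level over 11 genes of 3.80 and 2.03 CPM in taPVAT and 2.43 and 2.85 CPM in BAT, with 1 to 4 of the 11 at 0. Neb had 275 and 64 UMIs in taPVAT and 188 and 102 in BAT, and Tnnt3 57 and 17 and 31 and 35, while Acta1 had 0 to 3 UMIs and Ckm 1 to 5. Among the 8 heart muscle markers Actn2 alone was high, at 47.4 and 169 CPM in taPVAT and at 51.9 and 175 CPM in BAT, and Nppa was at 0 in all 4 libraries. The part of muscle RNA in the Ryr1 and Ryr2 levels was not tested.

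**Figure D2:**
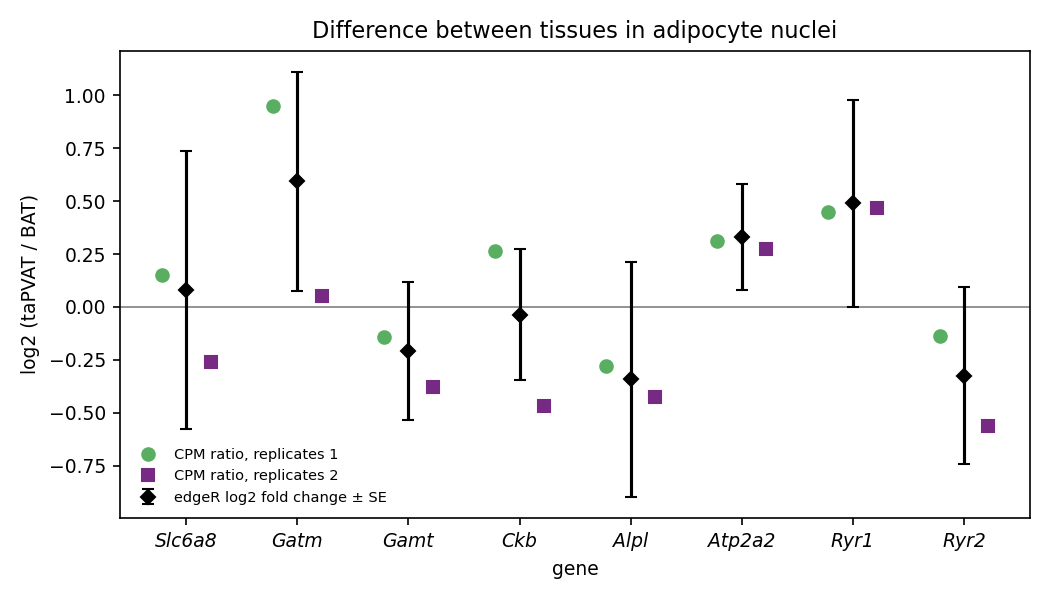
Difference between taPVAT and BAT in adipocyte nuclei for the 8 members tested, as log2 of taPVAT over BAT: edgeR estimates with standard errors (diamonds) and the CPM ratio within replicates 1 (circles) and within replicates 2 (squares). The error bars of Slc6a8, Gamt, Ckb, Alpl and Ryr2 cross 0, and Slc6a8 and Ckb have ratios of opposite sign in the 2 numbers.

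To compare libraries at equal depth, adipocyte nuclei of at least 2000 UMIs were thinned to 2000 UMIs each, which left out 339 to 5928 shallower nuclei per library and kept 64242. An Atp2a2 UMI was then found in 52.2% and 48.4% of taPVAT adipocyte nuclei and in 45.0% and 41.7% of BAT adipocyte nuclei (53.0% to 73.9% over the 4 libraries without thinning). T or NK lymphocyte-like nuclei at the same depth had one in 51.9% and 45.6% in taPVAT and in 43.1% and 49.0% in BAT. The 95% Wilson intervals of the lymphocyte-like shares, 46.6% to 57.2%, 34.3% to 57.3%, 36.5% to 50.0% and 41.0% to 57.0%, each held the adipocyte share of its library. The Atp2a2 share is therefore not read as particular to adipocytes at this depth. Ckb was found in 2.76% to 4.30% of adipocyte nuclei and in 2.93% to 4.83% of lymphocyte-like nuclei, and Alpl in 0.612% to 1.56% and in 0.490% to 1.47%, so these shares did not set adipocytes apart either. In CPM the lymphocyte-like level was 76.7% to 116% of the adipocyte level for Ckb and 47.9% to 151% for Alpl. Slc6a8 was found in 1.47% to 4.79% of adipocyte nuclei, against 0% to 3.43% of lymphocyte-like nuclei. Gamt was found in 1.29% to 1.68%, against 0% to 2.07%. For both genes each lymphocyte-like 95% Wilson interval held the adipocyte share of its library, so these shares did not set adipocytes apart. In CPM the lymphocyte-like level was 58.2% to 88.9% of the adipocyte level for Slc6a8 and 95.5% to 221% for Gamt. The lymphocyte-like shares rest on 758 nuclei in all after thinning, and the unthinned median depth of the class was 1931 UMIs against 3449 in adipocytes. A Gatm or Ryr1 UMI was found in at most 0.0575% of adipocyte nuclei in any library, and Ryr2 in at most 0.180%.

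**Figure D3:**
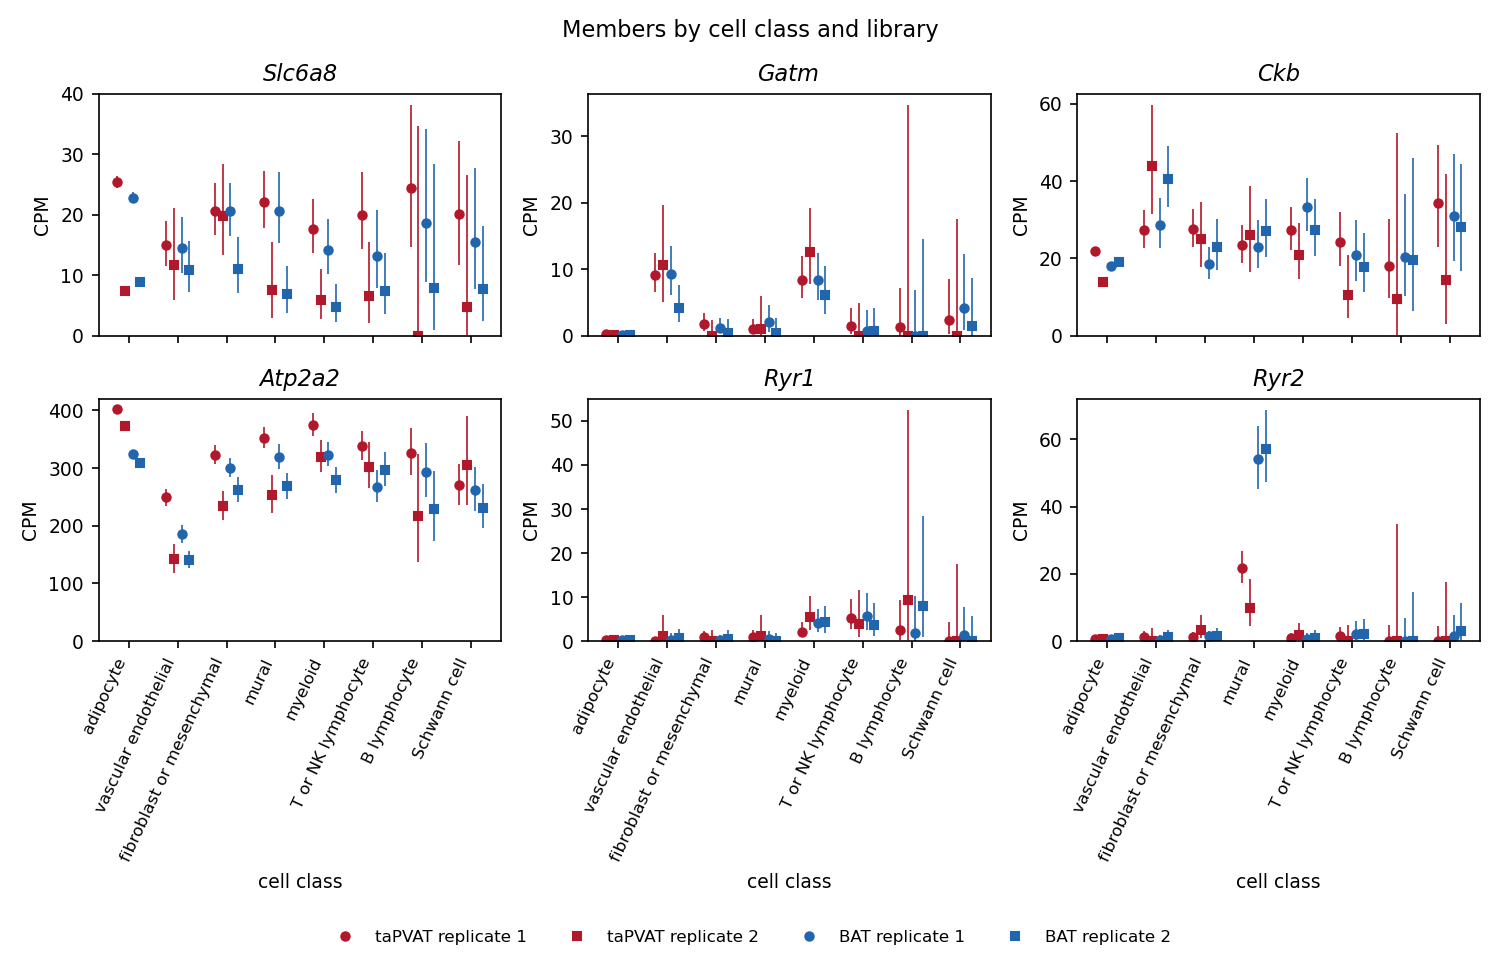
CPM of 6 members in 8 cell classes of each library, with exact 95% Poisson intervals. Gatm stands out in vascular endothelial-like and myeloid-like nuclei, Ryr1 in myeloid-like and lymphocyte-like nuclei and Ryr2 in mural-like nuclei, while Slc6a8 and Atp2a2 are read in every class.

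Outside adipocytes, Gatm, Ryr1 and Ryr2 were at their highest in other classes, many times above their adipocyte level, while the median adipocyte marker was lower in those classes than in adipocytes. These genes were singled out after their values were seen, and levels between classes are given as a description with no test. Gatm, Ryr1 and Ryr2 were also among the genes used to form the clusters behind the classes. Gatm was at 9.24 and 10.7 CPM in vascular endothelial-like nuclei of taPVAT and at 9.32 and 4.25 CPM in those of BAT. Myeloid-like nuclei held 8.46 and 12.6 CPM in taPVAT and 8.35 and 6.12 CPM in BAT. In each library these 2 classes were at 23.8 to 68.0 times the adipocyte level of Gatm, and their order differed between libraries. The other classes tested, mural-like and fibroblast-like nuclei among them, reached at most 4.22 CPM.

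Ryr1 was highest in immune-like nuclei. In T or NK lymphocyte-like nuclei it was at 5.35 and 3.98 CPM in taPVAT and at 5.59 and 3.72 CPM in BAT, from 27 UMIs in all. In myeloid-like nuclei it was at 2.18 and 5.39 CPM in taPVAT and at 4.17 and 4.24 CPM in BAT, from 38 UMIs. The 2 ranges overlap, and fewer than 10 UMIs lie behind most of these values, so their order cannot be read at this depth. B lymphocyte-like nuclei gave 1.86 to 9.41 CPM from 1 or 2 UMIs per library.

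Ryr2 was highest in mural-like nuclei, the pericytes and smooth muscle cells of vessel walls, where this channel is known from calcium sparks. Its level there was 21.7 and 9.73 CPM in taPVAT and 54.1 and 57.2 CPM in BAT, against at most 3.31 CPM in any other class tested. Both BAT libraries were above both taPVAT libraries, beside a background of 25.4% of genes whose tissues did not overlap in this class. The log2 difference of taPVAT over BAT was −1.73 ± 0.38, with an edgeR adjusted p of 0.643 over 10183 genes, so Ryr2 was not called; 1 gene (0.00982%) was. On simulated counts for this class the test called 4.35% of 2-fold and 61.9% of 4-fold changes. When each library was left out in turn, the log2 difference of Ryr2 ran from −2.51 to −1.40. Without BAT replicate 1 the adjusted p was 0.028, and without each of the other libraries it was 0.239 to 1.0. With no filter on low counts it was 0.0026.

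Mural-like nuclei fell into 2 clusters. The smaller was led by Acta2 and Myh11, genes of the smooth muscle contractile apparatus, and held 87 and 6 UMIs of Ryr2 in taPVAT and 132 and 115 in BAT, against 1 and 3 and 2 and 1 in the larger cluster. Its level in the smaller cluster was 200.5 and 188 CPM in taPVAT and 241 and 377 CPM in BAT, with a UMI in 20.2% and 26.7% of taPVAT nuclei and in 39.9% and 34.6% of BAT nuclei. The 95% Wilson intervals of these shares were 14.05% to 28.1%, 10.9% to 52.0%, 32.3% to 47.9% and 27.0% to 43.1%. The larger cluster, led by Rgs5 and Abcc9, which are known from pericytes, held 0.276 to 3.36 CPM, with a UMI in 0.0815% to 0.920% of nuclei. The Acta2 and Myh11 cluster made up 9.18% and 4.40% of mural-like nuclei in taPVAT and 18.9% and 16.2% in BAT. It held 124, 15, 148 and 130 nuclei, so the taPVAT replicate 2 value rests on 15 nuclei. Ryr2 was among the genes used to form clusters, so its difference between the clusters is not a finding of its own. Both the share of the Acta2 and Myh11 cluster and the Ryr2 level within it were higher in both BAT libraries than in both taPVAT libraries. The part of each in the sum over mural-like nuclei was not tested. Of the 11 skeletal muscle markers, 7 to 9 were at 0 in mural-like nuclei, with a summed level of 256 and 610 CPM in taPVAT and 289 and 423 CPM in BAT, mostly Neb, and their part in the Ryr2 level was not tested.

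Atp2a2, the pump that refills the store from which Ryr2 releases calcium, was also higher in the Acta2 and Myh11 cluster than in the Rgs5 and Abcc9 cluster. It was at 567 and 845 CPM in taPVAT and at 551 and 400 CPM in BAT, against 327 and 232 CPM and 254 and 245 CPM in the latter cluster of the same libraries. The higher level therefore held in 4 of 4 libraries, while over all mural-like nuclei Atp2a2 stood at 67.7% to 98.7% of its adipocyte level, beside medians of 52.3% to 74.9% for the adipocyte markers there.

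**Figure D4:**
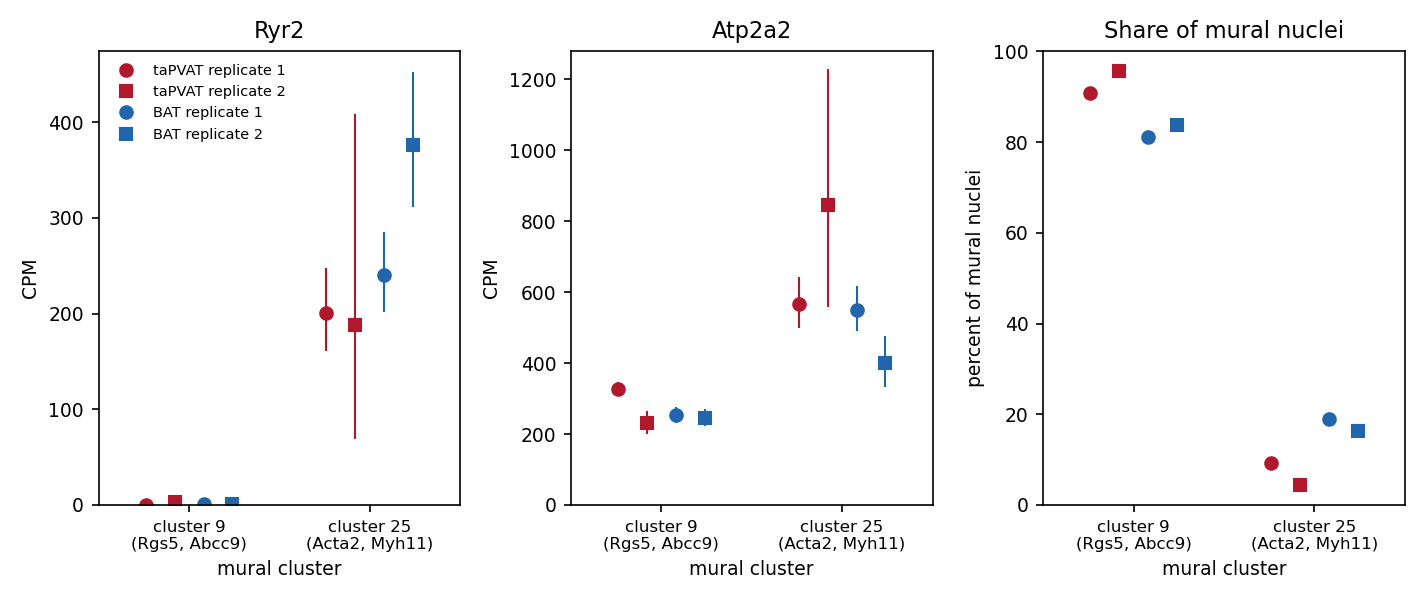
CPM of Ryr2 and Atp2a2 in the 2 mural-like clusters of each library, with exact 95% Poisson intervals, and the percent of mural-like nuclei in each cluster. Ryr2 lies at 188 to 377 CPM in the Acta2 and Myh11 cluster and at no more than 3.36 CPM in the Rgs5 and Abcc9 cluster, and the former takes a larger share of mural-like nuclei in both BAT libraries.

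Since Ryr2 and Atp2a2 were high together in the Acta2 and Myh11 cluster, the 250 bases before the RefSeq start of each gene are shown, from the GRCr8 build and on the strand of the gene. Capitals mark GC boxes (GGGCGG on either strand) and a CCAAT box (CCAAT on either strand).
Ryr2, chr17:63081277-63081526: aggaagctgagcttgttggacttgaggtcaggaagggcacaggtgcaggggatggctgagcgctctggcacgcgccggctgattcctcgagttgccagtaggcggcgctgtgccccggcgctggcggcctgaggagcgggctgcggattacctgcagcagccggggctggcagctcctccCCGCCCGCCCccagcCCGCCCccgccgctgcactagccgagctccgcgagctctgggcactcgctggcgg
Atp2a2, chr12:39733269-39733518: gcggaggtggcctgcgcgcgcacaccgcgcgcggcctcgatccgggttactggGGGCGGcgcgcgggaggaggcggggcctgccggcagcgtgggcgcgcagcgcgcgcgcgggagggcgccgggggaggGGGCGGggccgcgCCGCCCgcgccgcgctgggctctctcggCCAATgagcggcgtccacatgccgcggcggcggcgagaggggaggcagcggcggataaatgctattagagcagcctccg
The GC content was 72.0% before Ryr2 and 80.0% before Atp2a2, above 94.0% and 98.9% of 33469 rat promoters of the same length, whose median was 51.2%. Each window held 3 GC boxes, 2 of those before Ryr2 overlapping, and the Atp2a2 window also held 1 CCAAT box. Neither held a TATA box (TATAAA on either strand). At least 1 GC box was found in 30.5% of all promoters, a CCAAT box in 34.0% and a TATA box in 12.9%. Over the 9 members, all of which matched a RefSeq promoter, 7 had a GC box, 5 a CCAAT box and 1, Ckb, a TATA box.

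The remaining members were spread more evenly over classes. Among the classes tested, Ckb reached 20 CPM in both libraries of a tissue in the endothelial, fibroblast, mural and myeloid-like classes and in Schwann cell-like nuclei of BAT. Its vascular endothelial level was 27.3 and 44.0 CPM in taPVAT and 28.6 and 40.6 CPM in BAT, above the adipocyte level in 4 of 4 libraries. Atp2a2 was lowest, of the 8 classes tested, in vascular endothelial-like nuclei, at 249.4 and 142 CPM in taPVAT and 185 and 140 CPM in BAT, or 37.9% to 62.0% of its adipocyte level, much as the adipocyte markers were. In none of the 7 other classes tested, nor over all nuclei, was a member called between taPVAT and BAT. Those tests called 2 genes in fibroblast-like (0.0181%) and 2 in Schwann cell-like nuclei (0.027%), 1 in mural-like nuclei as above and 0 (0%) in the others, with 80 to 473 genes at an unadjusted p under 0.05. In the test over all nuclei Ryr2 had the largest difference of the members, at −1.01 ± 0.39 on the log2 scale (edgeR adjusted p 1.0).

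Within the adipocyte class, levels moved with cluster as well as library. Where a library had at least 100 nuclei in them, the 2 largest clusters with Kcnip1 and Clmp among their leading genes, of 3588 and 2373 nuclei, had 216 to 290 CPM of Atp2a2 and 229 to 370 CPM of Ucp1. The other such cluster, of 1536 nuclei, had 289 to 343 CPM of Atp2a2 and 708 to 1075 CPM of Ucp1. A cluster with the early response genes Fosb and Atf3 among its leading genes, with 283 of its 319 nuclei from BAT replicate 2, had 529 CPM of Atp2a2 in that library. A cluster with a median of 1328 UMIs and 21.0% mitochondrial UMIs, led by Scd and Fth1, had more Ckb than the rest, at 66.7 CPM in taPVAT replicate 1, 39.7 CPM in BAT replicate 1 and 73.9 CPM in BAT replicate 2. Gamt there was at 19.8, 20.7 and 10.6 CPM. Without that cluster every member kept the direction of its tissue difference. These are descriptions with no test. Atp2a2, Ckb and Gamt were not among the genes used to form the clusters, but the clusters were formed on the same nuclei.

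Among the other genes of both cycles, 49 of 52 listed were found and 44 could be tested in adipocytes, and none passed the test between taPVAT and BAT. Of the 44, 21 had a positive log2 difference, with a median of −0.0046 beside 0.0065 over all genes tested. Among store release and uptake genes, the smallest p-values belonged to Atp2a3, the SERCA3 pump, and to Itpr3, an inositol trisphosphate receptor. Atp2a3 was at 0.86 and 0.47 CPM in taPVAT and at 0.82 and 1.48 CPM in BAT, with a log2 difference of −0.75 ± 0.52. Itpr3 was at 2.22 and 1.68 CPM in taPVAT and at 1.22 and 1.59 CPM in BAT, a difference of 0.51 ± 0.39. Among regulators of the pump and the channel they belonged to S100a1, a calcium sensor protein, and to Jph1, which ties the reticulum to the plasma membrane. S100a1 was at 9.29 and 10.0 CPM in taPVAT and at 7.31 and 7.90 CPM in BAT (0.38 ± 0.29), and Jph1 at 0.70 and 0.62 CPM and at 0.90 and 0.91 CPM (−0.42 ± 0.39). Each of the 4 had an adjusted p of 1.0. Among nuclei of at most 5% mitochondrial UMIs the log2 differences were −0.073 for Atp2a3, 0.24 for Itpr3, 0.31 for S100a1 and −0.94 for Jph1. The tissues did not overlap for Itpr3, S100a1 and Jph1, which were picked for their small p-values. Over all 44, the tissues did not overlap for 6 (13.6%, beside 20.1% of all genes tested).

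The last comparison asked whether members were higher in adipocyte nuclei that held Ucp1 RNA. After thinning to 2000 UMIs, nuclei with and without a Ucp1 UMI were summed within each library, and edgeR's quasi-likelihood test was run with library as a block. A Ucp1 UMI was found in 78.5% and 53.0% of taPVAT adipocyte nuclei and in 88.0% and 62.9% of BAT adipocyte nuclei. At the same depth, T or NK lymphocyte-like nuclei, which should lack the gene, had one in 75.1% and 39.7% in taPVAT and in 82.4% and 60.0% in BAT. Without thinning the shares were 73.1% to 93.4% in adipocytes and 55.7% to 69.5% in lymphocyte-like nuclei. The thinned lymphocyte-like share was below the adipocyte share in 4 of 4 libraries but near it, so a Ucp1 UMI is not read as expression of Ucp1, and the 2 sets are not Ucp1-expressing and Ucp1-free cells. The adipocyte markers went both ways between the sets, with ratios of 0.694 to 1.62 and a median of 1.001 over 11 markers and 4 libraries. In 4 of 4 libraries Adipoq (0.744 to 0.920), Plin4 (0.694 to 0.928) and Ghr (0.744 to 0.865) were lower with Ucp1, and Cidea (1.06 to 1.46), Lpl (1.03 to 1.09) and Lipe (1.01 to 1.04) were higher. The part of these shifts in the results below was not tested.

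Of the 9 members found, 5 passed the filter on low counts and 0 were called, where 503 of 11571 genes were (4.35%, with 1.44% higher and 2.9% lower in nuclei with Ucp1). Without adjustment 2063 genes had a p under 0.05, and with DESeq2 the genes called came to 322. On simulated counts for this comparison, 97.2% of 2-fold changes were called, and 14 unchanged genes were called as well. Smaller changes, such as those fitted for the 5 members, were not simulated, so their missing calls do not show that the sets are alike. Alpl was nearest to the threshold, with a log2 fold change of 0.64 ± 0.17 (n = 4 libraries) and an adjusted p of 0.055. Its level with and without Ucp1 was 3.47 and 2.41 CPM in taPVAT replicate 1 and 8.89 and 5.14 CPM in taPVAT replicate 2. In BAT it was 4.66 and 1.45 CPM in replicate 1, where 7 UMIs lie behind the lower value, and 9.90 and 8.08 CPM in replicate 2. Alpl was thus higher with Ucp1 in 4 of 4 libraries, by 1.23-fold to 3.21-fold. Adipocyte clusters of a library differed in both genes, not always in the same order. In BAT replicate 1 the Ehhadh and Impdh1 cluster had 1619 CPM of Ucp1 and 4.82 CPM of Alpl, the cluster led by Kcnip1 and Nnat 358 CPM and 1.15 CPM (6 UMIs of Alpl), and the Scd and Fth1 cluster of shallow nuclei 1521 CPM and 0.544 CPM (1 UMI). The part of cluster mix in the Alpl difference was not tested. Without BAT replicate 1 its adjusted p was 0.042 (0.064 to 0.189 without each of the other libraries), with at least 2 Ucp1 UMIs 0.016 and at 4000 UMIs 0.024; at 1000 UMIs it was 0.136 and among nuclei of at most 5% mitochondrial UMIs 0.823.

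The other members differed by less. Atp2a2 had a log2 fold change of 0.09 ± 0.04 (adjusted p 0.301), with levels of 401 and 390 CPM, 379 and 371 CPM, 324 and 278 CPM, and 300.2 and 306 CPM with and without Ucp1 in taPVAT replicates 1 and 2 and BAT replicates 1 and 2. Ckb had 0.14 ± 0.07 (adjusted p 0.343) and was higher with Ucp1 in 3 of 4 libraries; thinned to 1000 UMIs it was called, at 0.29 with an adjusted p of 0.033. Gamt had 0.11 ± 0.12 and Slc6a8 0.04 ± 0.09. Both of these changed sign under another depth or filter.

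Of the other genes of both cycles, 35 were tested in this comparison and 3 were called, 1 higher and 2 lower, beside the 4.35% of all genes called. Phospho1, a phosphatase put on the creatine list by choice, rose with Ucp1, by a log2 fold change of 0.28 ± 0.06 (edgeR adjusted p 0.023). Its action on phosphocreatine was not tested, so the rise is not read as one of creatine cycling. Its level with and without Ucp1 was 29.1 and 24.8 CPM in taPVAT replicate 1 and 23.4 and 20.6 CPM in taPVAT replicate 2. In BAT it was 25.4 and 20.8 CPM in replicate 1 and 32.9 and 26.9 CPM in replicate 2. Atp2b4 and Slc8a1, which move calcium out of the cell, fell by 0.59 ± 0.11 (adjusted p 0.0087) and 0.77 ± 0.18 (adjusted p 0.031) on the log2 scale, each in 4 of 4 libraries. Slc8a1 went from 13.2 CPM without to 9.12 CPM with Ucp1 in taPVAT replicate 1 and from 4.41 to 3.14 CPM in taPVAT replicate 2. In BAT it went from 16.6 to 5.43 CPM in replicate 1 and from 7.37 to 5.43 CPM in replicate 2. Without BAT replicate 1, where its ratio was farthest from 1, the log2 difference of Slc8a1 was −0.48 and it was still called. None of the 3 was called among nuclei of at most 5% mitochondrial UMIs, with log2 differences of 0.05 for Phospho1 (adjusted p 0.965), −0.50 for Atp2b4 (0.248) and −0.25 for Slc8a1 (0.917). Nor were they at 4000 UMIs, with 0.27 (0.189), −0.46 (0.222) and −0.86 (0.061). Phospho1 was not called by DESeq2 (adjusted p 0.185), nor Atp2b4 at 1000 UMIs (0.089). Leaving out a library also ended calls: without taPVAT replicate 1 the adjusted p was 0.103 for Phospho1, 0.052 for Atp2b4 and 0.082 for Slc8a1. Phospho1 was at 0.054 without taPVAT replicate 2 and 0.124 without BAT replicate 2, and Slc8a1 at 0.052 and 0.053 without them. Over the 35 genes the median log2 fold change was 0.0353, beside 0.0110 over all genes tested.

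**Figure D5:**
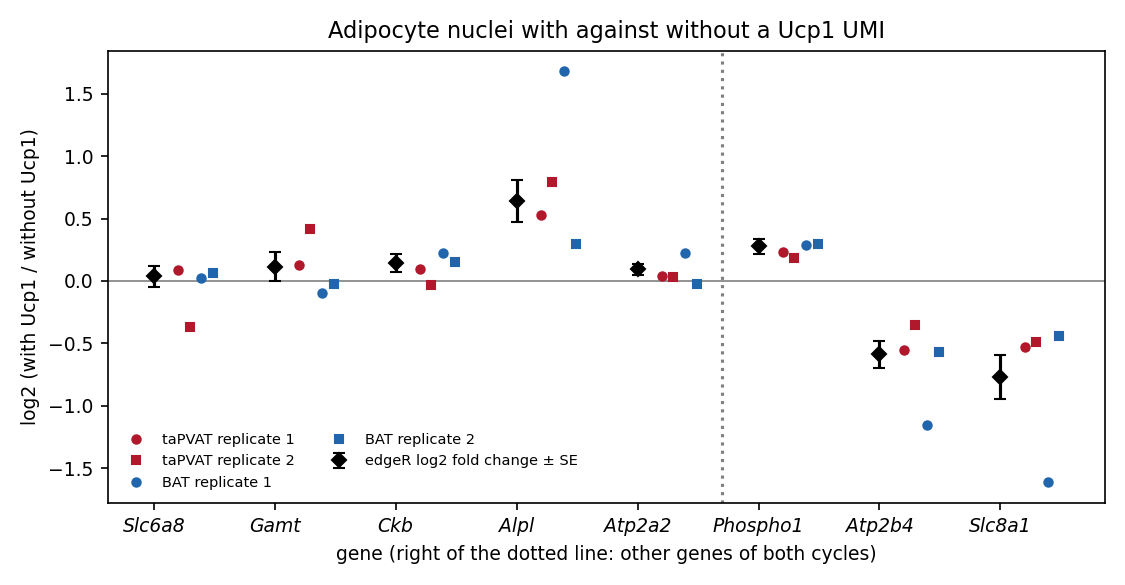
Difference between adipocyte nuclei with and without a Ucp1 UMI at 2000 UMIs per nucleus, as log2 of with over without: edgeR estimates with standard errors (diamonds) and the ratio in each library (coloured symbols), for the 5 members tested and, right of the dotted line, the 3 other genes of both cycles that were called. Alpl and Phospho1 are above 0 in 4 of 4 libraries, and Atp2b4 and Slc8a1 are below 0 in 4 of 4.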

How the data were processed

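Single-nucleus RNA was read from 4 snap-frozen adipose samples of about 50 mg, with a 10x Genomics 3-prime kit (version 3.1) and a target of 10000 nuclei, per the labels' protocols. The deposited matrices hold raw UMI counts per gene and barcode, made by the authors with Cell Ranger 7.1.0 on Rnor_6.0, per the submitters' processing notes. The annotation release, the handling of introns and the rule that left barcodes of at least 500 UMIs were not given in any source used here, and without the counting settings overlapping genes cannot be told apart.

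Barcodes under 500 genes were removed. Scrublet in scanpy 1.11.5 called 6.61% to 15.3% of barcodes as doublets in 3 libraries and 0 in BAT replicate 1, where the caller was taken to have failed and the 18.5% of highest scores were removed at the other libraries' median ratio of called to expected. From 3000 variable genes (Gatm, Ryr1 and Ryr2 among them), 30 principal components and 15 neighbours, Leiden clustering at resolution 1 gave 28 clusters without integration of libraries. Clusters took a class name from marker lists. The levels that a list had to reach were set after the data were seen. No upper limit was set on mitochondrial UMIs; 5% was an alternative.

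UMIs were summed per library and class. Classes with at least 20 nuclei in every library were tested with edgeR 4.0.16 (TMM, filterByExpr, quasi-likelihood, Benjamini-Hochberg over all genes tested); DESeq2 1.42.0 was an alternative. Scripts were tested on simulated data. The members, the gene lists and the rule for named genes were chosen with earlier results of these data known. All members are named in adipocytes. Elsewhere the rule names members called or reaching 20 CPM in both libraries of a tissue. Gatm, Ryr1 and some others are given there too, outside this rule, Gatm and Ryr1 after their values were seen. Of the other listed genes, those called are named, or in a list with none called the 2 of smallest p. Promoters are from RefSeq, GRCr8. P-values of the tests between tissues measure the spread between 2 animals' samples per tissue, which includes whatever the replicate number stands for. Those of the Ucp1 comparison measure the spread of the difference within a library over the 4 libraries. Since the labels do not say whether the same rats gave both tissues, these libraries may not be independent animals.

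Same-numbered samples deviated together over adipocyte genes (correlation 0.65), but the labels do not say that a number marks a shared animal, batch or day, and there are 2 pairs, so samples are treated as unpaired.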

Additional observations from a re-analysis of the deposited data

How the results depend on the processing

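Between tissues in adipocytes, no member was called under any of the alternatives run, and DESeq2, no filter on low counts and the replicate block gave 56, 23 and 316 genes called in place of 0. The same 3 settings gave 104, 60 and 386 over all nuclei, in place of 0. In fibroblast-like nuclei they gave 57, 165 and 76, in place of 2, and in mural-like nuclei 12, 81 and 195, in place of 1. In myeloid-like nuclei they gave 3, 40 and 14, in T or NK lymphocyte-like nuclei 3, 20 and 36, and in vascular endothelial-like nuclei 1, 22 and 6, each in place of 0. No filter and the block gave 9 and 2 in B lymphocyte-like nuclei, in place of 0, and 22 and 14 in Schwann cell-like nuclei, in place of 2. Leaving out each library in turn gave 0 to 114 genes called in adipocytes, 0 to 102 over all nuclei, 57 to 72 in fibroblast-like, 1 to 75 in mural-like, 0 to 15 in myeloid-like, 1 to 52 in T or NK lymphocyte-like, 0 to 24 in B lymphocyte-like, 6 to 58 in Schwann cell-like and 0 to 1 in vascular endothelial-like nuclei; a left-out library leaves a tissue with 1 sample, assumed to vary like the other tissue. The cause of these differences was not tested.

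Members called in mural-like nuclei went from 0 to 1, Ryr2, with no filter and with the replicate block (adjusted p 1.6e-06), and ranged from 0 to 1 over libraries left out. The block treats replicate numbers as pairs, which the labels do not state; it changed the sign of Slc6a8 in adipocytes (−0.0069) and changed no other member's call. Ckb turned positive among nuclei of at most 5% mitochondrial UMIs (0.058). Over libraries left out the log2 difference in adipocytes ran from −1.03 to 0.80 for Slc6a8, from −0.40 to 0.22 for Ckb and from −0.96 to 0.37 for Alpl. With their sign kept, it ran from 0.23 to 0.80 for Gatm, −0.49 to −0.0085 for Gamt, −0.61 to −0.067 for Ryr2, 0.34 to 0.57 for Ryr1, −1.25 to −0.22 for Atp2a3, 0.24 to 0.75 for Itpr3, 0.24 to 0.48 for S100a1 and −0.52 to −0.37 for Jph1.

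For nuclei with against without Ucp1, the genes called were 772 with at least 2 Ucp1 UMIs, 97 at most 5% mitochondrial UMIs, 322 with DESeq2, 1022 with no filter and 217 at 4000 UMIs, and 224 to 627 over libraries left out, in place of 503. The members called went from 0 to 1 with at least 2 Ucp1 UMIs, no filter, 4000 UMIs (Alpl in each) and 1000 UMIs (Ckb), and ranged from 0 to 1 over libraries left out. Slc6a8 turned to −0.097 at most 5% mitochondrial UMIs and ran from −0.014 to 0.083 over libraries left out; Gamt turned to −0.087 at 1000 UMIs and −0.12 at 4000 UMIs. Without thinning, the median share of adipocyte nuclei with a UMI was 6.08% for Slc6a8, 0.084% for Gatm, 2.54% for Gamt, 7.35% for Ckb, 2.08% for Alpl, 66.2% for Atp2a2, 0.081% for Ryr1 and 0.302% for Ryr2, beside 3.07%, 0.040%, 1.41%, 3.71%, 1.01%, 46.7%, 0.040% and 0.161%. The alternative without the shallow adipocyte cluster was chosen after seeing the data.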
